A study of Rattus norvegicus with 24 samples.

Results

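The genes described here are 10 genes of protein folding and stress signalling in the endoplasmic reticulum: Hspa5, Dnajc3, Hsp90b1, Calr, Canx, Pdia3, Pdia4, Xbp1, Atf4 and Ddit3. They were found by their exact symbol in the platform annotation. They account for 13 of the 31042 probe sets on the array that are not controls, and for 10 of the 14217 genes with a symbol of their own. Canx has 3 probe sets, Pdia3 has 2 and each of the others has 1. All 13 probe sets passed the filter on low signal (a log2 level above 4 on at least 6 arrays), as did 15177 probe sets in all. The probe set with the highest mean stands for its gene. The genes were chosen by name with earlier results of these arrays known. In those results Hspa5, Dnajc3 and a list of heat shock and chaperone genes were lower in aged impaired rats, and in all aged rats, than in young rats. Differences in those comparisons are therefore the values that chose the genes. They are given as a description, with no p for any of the 10 genes, and the counts that passed stand there only beside those of all probe sets. An adjusted p printed in those comparisons for any other chaperone gene is likewise a description and no fresh test. Unimpaired minus young and impaired minus unimpaired share arrays with them, so p values of the 10 genes there are no fresh test either.

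The arrays measured total RNA from the dentate gyrus, the part of the hippocampus that holds the granule neurons, of single male Long-Evans rats that were housed individually and received no treatment. Young rats (8 arrays) were 6 months old, and aged rats were 24 to 26 months old. Aged rats were divided by their learning index in a Morris water maze: aged unimpaired rats (6 arrays) scored within the range of the young and aged impaired rats (7 arrays) scored worse. The animals were killed 2 weeks after behavioural testing, so the levels are not those during learning. Levels are log2 values, on which a difference of 1 is a doubling.

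Proteins that are secreted or set in membranes fold in the lumen of the endoplasmic reticulum. Hspa5, also called BiP, holds unfolded chains there, and when such chains accumulate it is drawn away from the sensors Ire1, Perk and Atf6, which start the unfolded protein response. Ire1 splices the Xbp1 transcript, Perk favours translation of Atf4, which in turn raises Ddit3 (also called CHOP), and Atf6 enters the nucleus, where it raises the chaperones. Neurons that release peptides and carry many membrane receptors load this compartment heavily.

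The response acts on chaperone genes largely through the endoplasmic reticulum stress element (ERSE), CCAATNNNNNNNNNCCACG, in which N is any base. RefSeq promoters of the GRCr8 assembly, each 250 bases before to 50 bases after the annotated start, were found for 9 of the 10 genes, Pdia3 being the other. An exact match on either strand lay in 6 of these 9 promoters, against 22 of 33469 promoters (0.0657%) in the whole table. Because the element is known from chaperone genes, these shares are a description and no independent result. The matches are shown as a sequence that 6 of the 9 promoters share. Each line has 12 bases on either side of the match. Capitals mark the CCAAT and CCACG boxes, or their reverse complements ATTGG and CGTGG where the element lies on the opposite strand.
Hspa5: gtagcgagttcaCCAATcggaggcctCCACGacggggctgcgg
Dnajc3: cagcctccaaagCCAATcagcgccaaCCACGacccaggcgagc
Hsp90b1 (distal): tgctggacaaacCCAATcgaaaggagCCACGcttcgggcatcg
Hsp90b1 (proximal): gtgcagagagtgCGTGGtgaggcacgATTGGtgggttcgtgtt
Calr: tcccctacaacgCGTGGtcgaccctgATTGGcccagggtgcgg
Canx: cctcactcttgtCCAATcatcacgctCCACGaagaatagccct
Xbp1: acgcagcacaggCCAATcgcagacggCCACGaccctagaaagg
Each line is written in the direction of its gene.

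The printed windows are chr3:38452961-38453003 on the plus strand for Hspa5, chr15:102432522-102432564 (plus) for Dnajc3 and chr7:23012439-23012481 and chr7:23012335-23012377 (minus) for Hsp90b1. Those of Calr, Canx and Xbp1 are chr19:40213123-40213165 (plus), chr10:35158057-35158099 (minus) and chr14:84604546-84604588 (plus). The element began 43 bases before the start of Hspa5, 65 before Xbp1 and 133 before Dnajc3. It began 230 bases before Canx and 232 before Calr, while Hsp90b1 had 1 copy at 176 bases and another at 72. Pdia4, Atf4 and Ddit3 had no exact match, and each of their windows held the short box CCACG, as did all 9 promoters and 31.6% of the table. The Hspa5 window was also the only one of the 9 with TGACGTG, the core of the unfolded protein response element (UPRE), which 1.81% of promoters hold. A further element, ERSE-II, was in none of the 9 windows and in 0.0508% of promoters. Matches are letters in a window and no measure of binding, and copies with a mismatch were not counted.

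**Figure D1:**
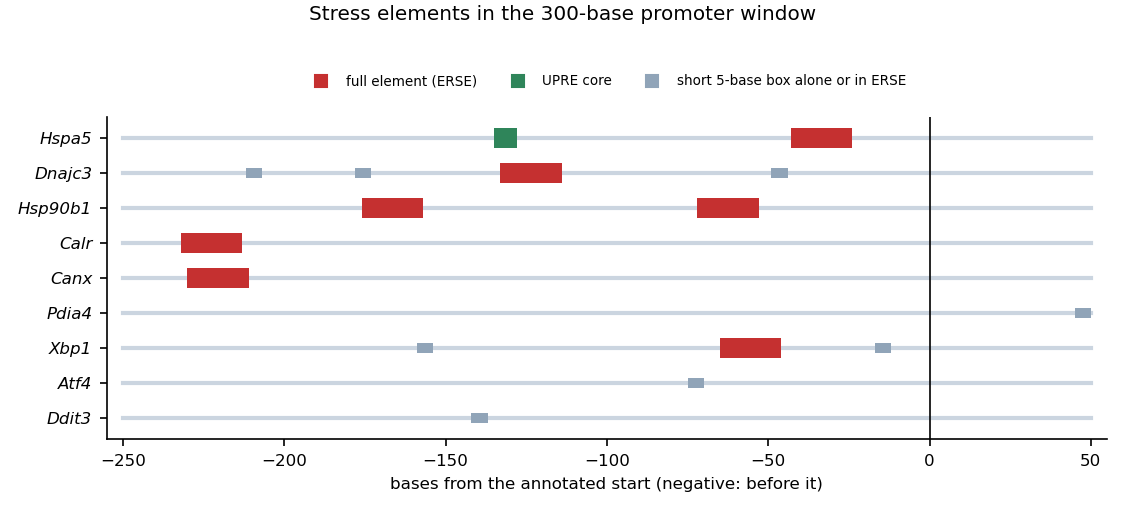
Position of the stress elements in the promoter windows of 9 genes, in bases from the annotated start (horizontal axis, negative values before it). Red boxes are exact ERSE matches, which lie in 6 of the 9 windows and in 2 places in Hsp90b1, green is the UPRE core of Hspa5 and grey is the short CCACG box.

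Hspa5 is the Hsp70 chaperone of the compartment and its level is a common gauge of the unfolded protein response. Its log2 level in young rats was 11.62 at the lowest, 11.82 at the median and 12.22 at the highest. In aged unimpaired rats the lowest, median and highest levels were 11.50, 11.59 and 11.80, and in aged impaired rats they were 11.32, 11.57 and 11.82. Young replicates 6 and 9 stood at the top of all arrays and aged impaired replicate 3 at the bottom. The groups overlapped: 5 of 7 impaired and 3 of 6 unimpaired arrays lay below every young array, and all 13 aged arrays lay below the young mean. Means were 11.88 ± 0.22 (SD, n = 8) in young, 11.62 ± 0.12 (n = 6) in unimpaired and 11.57 ± 0.16 (n = 7) in impaired rats. Impaired rats thus differed from young by -0.31 ± 0.09 (SE), a level of 80.8% of the young one.

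The comparison of unimpaired with young rats is part of all aged rats against young, which was known when the genes were chosen. It shares both its groups of arrays with that comparison, so its p values are a description and no fresh test. In unimpaired minus young Hspa5 differed by -0.25 ± 0.09 (SE), which did not pass (limma adjusted p = 0.173 over 15177 probe sets). Impaired and unimpaired rats differed in Hspa5 by -0.05 ± 0.10 (adjusted p = 0.821), with a 95% interval from -0.25 to 0.14.

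Dnajc3, also called p58IPK, is a J-domain partner that hands unfolded chains to Hspa5 and is also known as an inhibitor of the kinase Perk. Its signal was low, close to the filter. Young levels ran from 5.05 through a median of 5.25 to 5.88, unimpaired from 4.99 through 5.05 to 5.30, and impaired from 4.55 through 4.95 to 5.09. Young replicates 9, 3 and 4 were the highest of all arrays, and impaired replicates 1 and 3 the lowest. The impaired mean of 4.87 ± 0.22 (SD, n = 7) differed from the young mean of 5.36 ± 0.32 (n = 8) by -0.49 ± 0.12 (SE), or 71.3% of the young level, and 6 of 7 impaired arrays lay below every young array. The unimpaired mean of 5.09 ± 0.12 (n = 6) differed from young by -0.27 ± 0.12, or 83.0% of the young level (limma adjusted p = 0.279). Dnajc3 had the widest gap between the aged groups, -0.22 ± 0.13. There 7 of 7 impaired arrays lay below the unimpaired mean and 5 of 7 below every unimpaired array. The gap did not pass either (limma adjusted p = 0.439). Because the same impaired arrays served the choice of Dnajc3, the gap and its rank are a description.

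Hsp90b1, or GRP94, is the Hsp90 chaperone of the compartment and folds integrins and Toll-like receptors. Levels ran from 11.86 to 12.15 in young (median 12.00), from 11.73 to 12.15 in unimpaired (median 11.96) and from 11.73 to 12.02 in impaired rats (median 11.95). The groups overlapped: all 7 impaired arrays lay below the young mean and 2 of them below every young array, 4 of 8 young arrays lay above every impaired array, and the highest unimpaired array, replicate 7, equalled the highest young array at this rounding. Impaired minus young was -0.10 ± 0.06 (SE), unimpaired minus young -0.07 ± 0.06 (limma adjusted p = 0.623) and impaired minus unimpaired -0.04 ± 0.06 (adjusted p = 0.813). The 95% intervals of the last 2 differences lay between -0.19 and 0.10.

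Calr and Canx are the lectin chaperones that hold newly made glycoproteins, Calr free in the lumen, where it also stores calcium, and Canx anchored in the membrane. Calr levels were 11.17, 11.46 and 11.69 (lowest, median and highest) in young, 11.10, 11.34 and 11.50 in unimpaired and 11.13, 11.31 and 11.43 in impaired rats. All 7 impaired and 5 of 6 unimpaired arrays lay below the young mean, but only 1 array of each aged group lay below every young array. Impaired minus young was -0.17 ± 0.07 (SE) and unimpaired minus young was -0.13 ± 0.07 (limma adjusted p = 0.384). The aged groups differed by -0.04 ± 0.07 (adjusted p = 0.824).

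Canx did not follow Calr. Its levels were 11.44, 11.50 and 11.61 in young, 11.28, 11.44 and 11.48 in unimpaired and 11.42, 11.52 and 11.57 in impaired rats. Young and impaired arrays covered the same range, and the unimpaired arrays sat lowest, with all 6 below the young mean. Impaired minus young was 0.00 ± 0.04 (SE). Unimpaired minus young was -0.09 ± 0.04 (limma adjusted p = 0.207) and impaired minus unimpaired was 0.10 ± 0.04 (adjusted p = 0.265), with 6 of 7 impaired arrays above every unimpaired array. The second probe set of Canx gave -0.12 ± 0.06 for unimpaired minus young and 0.14 ± 0.06 between the aged groups. The third and dimmest gave -0.02 ± 0.10 and 0.02 ± 0.10. Deviations from the group mean on the first probe set correlated at 0.74 with the second and 0.33 with the third over 21 arrays. Under quantile normalization the unimpaired difference of Canx shrank to -0.03 and the difference between the aged groups to 0.03.

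The disulfide isomerases form and rearrange the cysteine bridges of folding proteins, and Pdia3 (ERp57) does so on the glycoproteins that Calr and Canx hold. Pdia3 resembled Canx. Its levels were 11.02, 11.11 and 11.35 in young, 10.77, 11.03 and 11.10 in unimpaired and 11.02, 11.17 and 11.22 in impaired rats. Unimpaired replicate 8 was the lowest of all arrays, at 10.77. Impaired minus young was -0.01 ± 0.06 (SE), unimpaired minus young -0.15 ± 0.06 (limma adjusted p = 0.196) and impaired minus unimpaired 0.14 ± 0.06 (adjusted p = 0.298). All 7 impaired arrays lay above the unimpaired mean, and 5 of 7 above every unimpaired array. The dimmer second probe set gave -0.05 ± 0.05 and 0.08 ± 0.05 for the last 2 comparisons. Under quantile normalization the values of the first probe set shrank to -0.10 and 0.07. Without unimpaired replicate 8 its unimpaired minus young difference was -0.10. Several marker lists of other cells were also lowest in unimpaired rats. The mean level of 11 oligodendrocyte markers was 8.59 in unimpaired, 8.92 in young and 8.84 in impaired rats, and that of 9 CA1 and CA3 pyramidal neuron markers was 6.15, 6.38 and 6.48 in the same order. For 12 endothelial markers the values were 6.43, 6.58 and 6.62, and for 10 interneuron markers 6.59, 6.67 and 6.77. The mean of all tested probe sets was lowest in unimpaired rats too, at 7.72, against 7.77 in young and 7.78 in impaired rats. The part of the marker lists and of this wider shift in the Canx and Pdia3 values was not tested.

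Pdia4 (ERp72) is a longer isomerase of the same family. It followed Hspa5 instead, with levels of 7.73, 7.99 and 8.41 in young, 7.80, 7.90 and 8.08 in unimpaired and 7.67, 7.75 and 8.14 in impaired rats. Young replicates 6 and 3 were the highest arrays, and 3 of 7 impaired arrays lay below every young array. Impaired minus young was -0.21 ± 0.10 (SE), unimpaired minus young -0.13 ± 0.10 (limma adjusted p = 0.529) and impaired minus unimpaired -0.08 ± 0.11 (adjusted p = 0.764).

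None of the 3 transcription factors was as far below its young level as Hspa5. Xbp1, whose spliced transcript encodes the active factor, had levels of 10.50, 10.66 and 10.91 in young, 10.70, 10.76 and 10.97 in unimpaired and 10.58, 10.83 and 10.94 in impaired rats. All 6 unimpaired and 5 of 7 impaired arrays lay above the young mean, and the groups overlapped. Xbp1 was the gene with the highest positive difference in both comparisons with young rats, 0.10 ± 0.07 (SE) in impaired and 0.13 ± 0.07 in unimpaired rats (limma adjusted p = 0.322). The aged groups differed by -0.03 ± 0.07 (adjusted p = 0.861). A probe set gives 1 level for the gene and no measure of splicing.

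Atf4 and Ddit3 belong to the Perk arm. Atf4 levels were 10.01, 10.10 and 10.19 in young, 9.93, 10.08 and 10.19 in unimpaired and 10.06, 10.11 and 10.25 in impaired rats. Atf4 differed from young by 0.04 ± 0.04 (SE) in impaired and by -0.03 ± 0.04 in unimpaired rats (limma adjusted p = 0.805), and between the aged groups by 0.07 ± 0.05 (adjusted p = 0.511). Because Atf4 is controlled largely at translation, its transcript is an incomplete gauge of the factor. Ddit3, a target of Atf4 that promotes cell death under lasting stress, had levels of 8.06, 8.34 and 8.51 in young, 8.13, 8.35 and 8.41 in unimpaired and 8.07, 8.31 and 8.53 in impaired rats. Its differences were -0.05 ± 0.08 in impaired minus young, -0.02 ± 0.08 in unimpaired minus young (adjusted p = 0.938) and -0.03 ± 0.08 between the aged groups (adjusted p = 0.875).

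**Figure D2:**
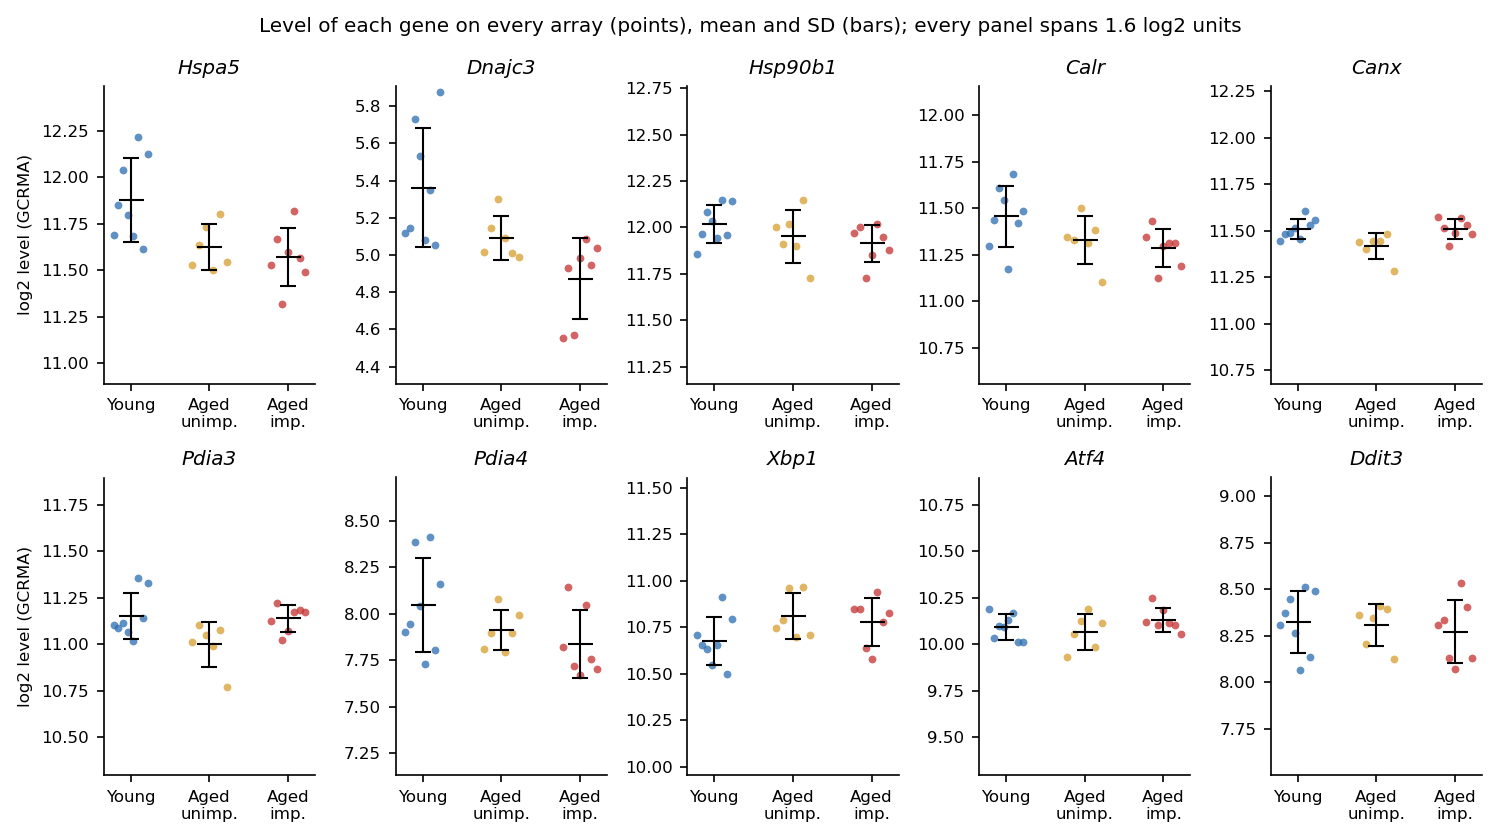
Log2 level (vertical axis) of the 10 genes on each of the 21 arrays (points), by group, with the group mean and SD (black bars); every panel spans the same number of log2 units. Hspa5 and Dnajc3 have the lowest means in aged impaired rats, Canx and Pdia3 in aged unimpaired rats, and Xbp1 has its lowest mean in young rats.

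The order of the group means was young, unimpaired, impaired from high to low in 6 of the 10 genes (Hspa5, Dnajc3, Hsp90b1, Calr, Pdia4 and Ddit3). This count is a description, since the order draws on the comparisons that served the choice of genes. The share of all probe sets with the same order was not counted. No neighbouring pair in that order passed at a limma adjusted p below 0.05, and those tests share arrays with the choice of genes. In unimpaired minus young, 0 of the 13 probe sets passed at a limma adjusted p below 0.05, where 1.13% of all tested probe sets did, and 5 of 13 had an unadjusted p below 0.05, where 17% did. Of the 10 genes 9 were negative, with a median of -0.11, but 66% of all probe sets were negative too, with a median of -0.04. Under quantile normalization 7 of the 10 were negative and the median of all probe sets was 0.01. Between the aged groups 0 of 13 passed, as did 0% of all probe sets, and 3 of 13 had an unadjusted p below 0.05, against 14.5%. All 3 were positive, higher in impaired rats, and belonged to Canx and Pdia3. There 7 of 10 genes were negative, with a median of -0.04, where 27.6% of all probe sets were negative and their median was 0.05. Quantile normalization brought that median to -0.01, with 8 of the 10 negative.

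In the comparisons that served the choice of genes, the counts are given with nothing read from them. In impaired minus young 0 of 13 probe sets passed, where 78 of all tested probe sets did (0.514%), and 4 had an unadjusted p below 0.05 (12.4% of all). Without young replicate 5 the count was 1, that of Dnajc3, and the calls among all probe sets rose to 161. In all aged rats against young, with both aged groups weighted equally, 0 of 13 passed (1.11% of all) and 4 had an unadjusted p below 0.05 (14.6% of all). The tissue was whole dentate gyrus, in which fewer cells of a type and less RNA per cell cannot be told apart.

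**Figure D3:**
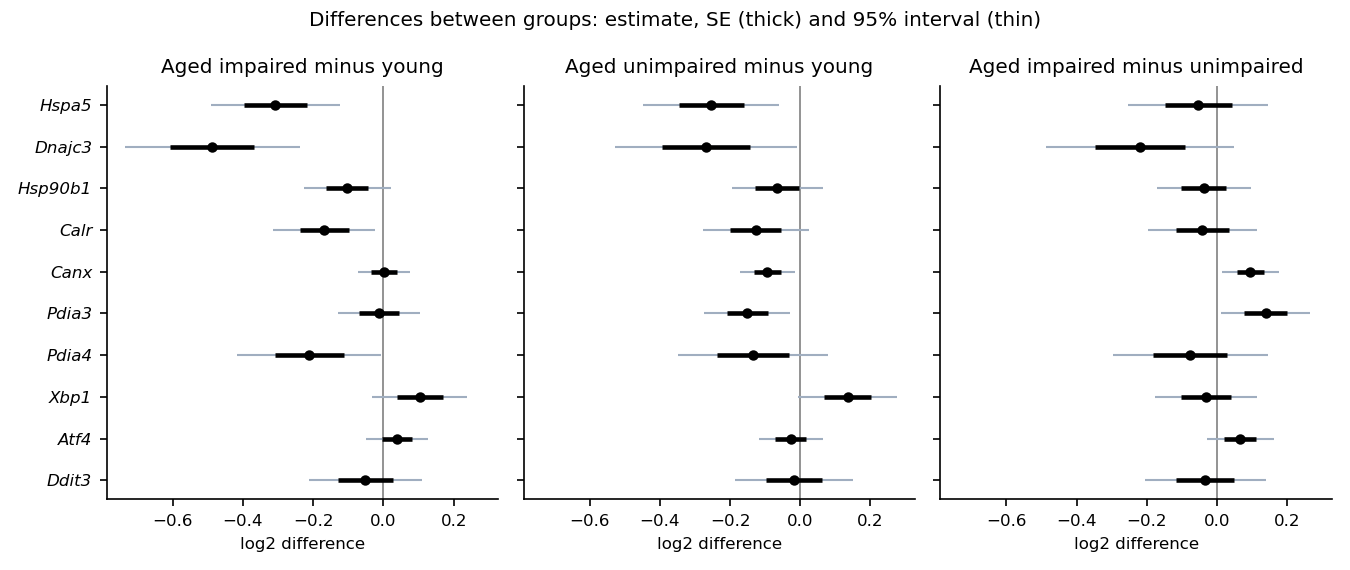
Log2 difference (horizontal axis) of each gene in impaired minus young, unimpaired minus young and impaired minus unimpaired rats, with the SE (thick) and the 95% interval (thin). The estimates of Hspa5, Dnajc3, Hsp90b1, Calr, Pdia4 and Ddit3 lie left of 0 in both comparisons with young rats, and that of Xbp1 lies right. Canx and Pdia3 lie near 0 in impaired minus young and right of it between the aged groups. The intervals of Hsp90b1, Xbp1 and Ddit3 cross 0 in both comparisons with young rats, and those of Calr and Pdia4 in unimpaired minus young. Intervals are not adjusted for the number of probe sets, and those of impaired minus young only describe the values that chose the genes.

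Co-variation from rat to rat inside the groups is a measure that the choice of genes did not use. Each array's deviation from its group mean was taken, which removes the differences between group means, and 9 relations with Hspa5 were computed over 21 arrays. Rats with more Hspa5 than the rest of their group tended to have more of 8 of the other 9 genes. The exception was Atf4, with a Pearson r of 0.04 (permutation p = 0.853) and a Spearman rho of 0.03 (permutation p = 0.894).

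Of the 9 genes, Pdia4 and Hsp90b1 had the highest correlations with Hspa5. Pdia4 had an r of 0.80 and a rho of 0.75 (two-sided permutation p = 0.00018 and 0.00068, arrays shuffled within groups). Hsp90b1 had an r of 0.78 and a rho of 0.83 (permutation p = 4e-05 and 3e-05). For Calr, r was 0.71 and rho 0.75 (permutation p = 0.001 and 0.00054), and for Dnajc3 r was 0.66 and rho 0.65 (permutation p = 0.00651 and 0.00421). Pdia3 gave an r of 0.68 and a rho of 0.65 (permutation p = 0.00098 and 0.00226), and Canx an r of 0.62 and a rho of 0.57 (permutation p = 0.0033 and 0.0105).

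Xbp1 and Ddit3 came next in r after Pdia4 and Hsp90b1, ahead of the other chaperones. For Xbp1, r was 0.73 and rho 0.68 (permutation p = 0.00031 and 0.00131), although its group means ran opposite to those of Hspa5 between young and aged rats. For Ddit3, r was 0.73 and rho 0.68 (permutation p = 0.00063 and 0.00215), although the group means of Ddit3 were close, at 8.32 in young, 8.31 in unimpaired and 8.27 in impaired rats. Young replicate 6 had the highest young level of Hspa5, Hsp90b1, Calr, Pdia3, Pdia4, Xbp1 and Ddit3, and of the probe set that stands for Canx. Impaired replicate 6 was the highest impaired array for Hspa5, Dnajc3, Hsp90b1, Xbp1 and Ddit3, and impaired replicate 3 the lowest for Hspa5, Hsp90b1, Calr, Canx and Pdia3.

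**Figure D4:**
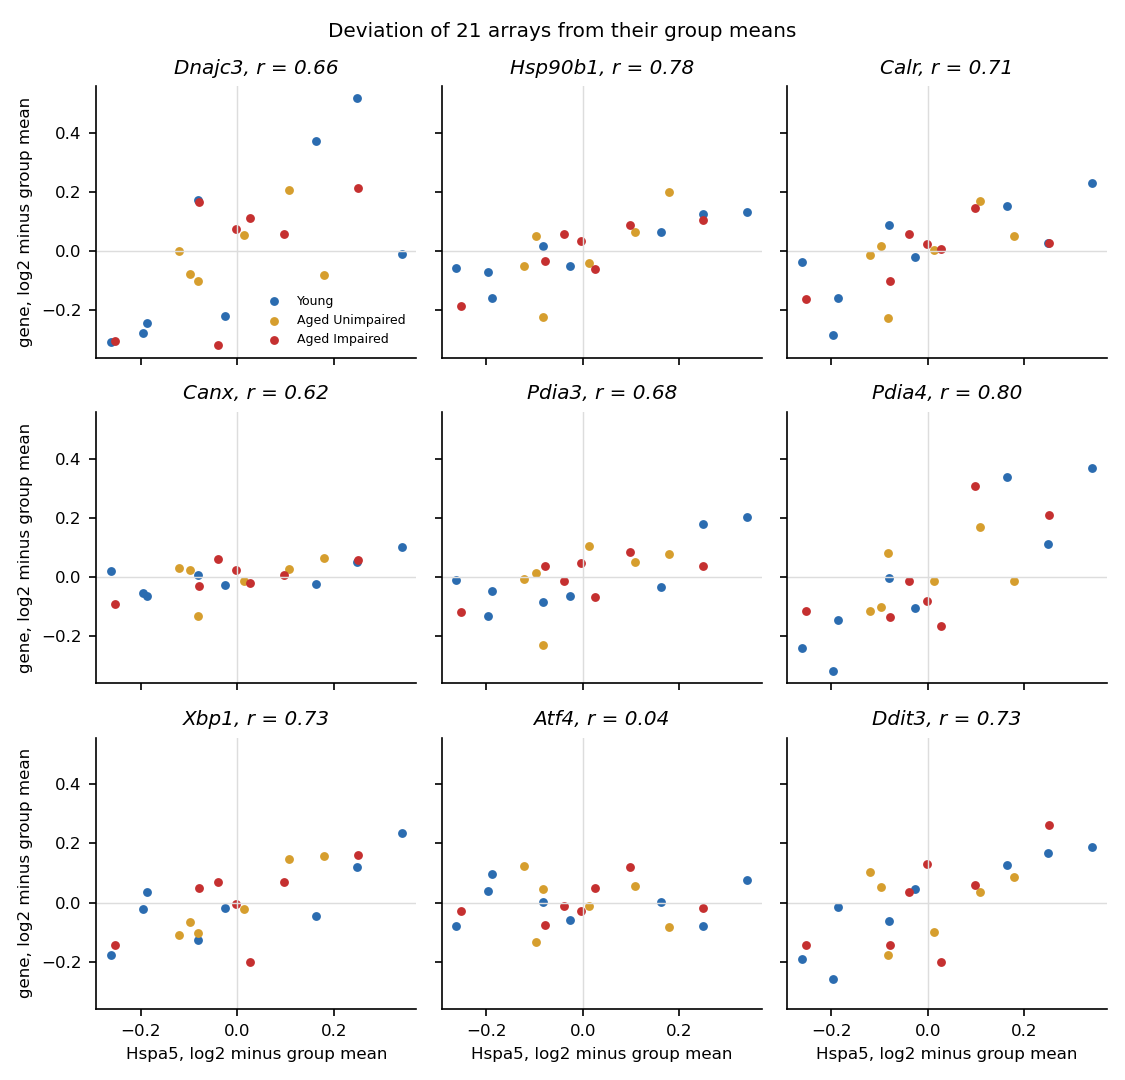
Deviation from the group mean of 9 genes (vertical axes) against that of Hspa5 (horizontal axes), both in log2 units; each point is 1 of the 21 arrays, coloured by group, and r is given above each panel. The points rise from left to right in every panel except that of Atf4.

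The relations were read against all other probe sets. Over 15176 probe sets the median r with Hspa5 was 0.08, the 95th percentile 0.49 and the 99th percentile 0.64. A higher r than that of Pdia4 was found in 0.0264% of them, than that of Hsp90b1 in 0.0593% and than that of Canx in 1.27%. In a limma fit of each probe set on Hspa5 with the groups as terms, 8 of the 9 genes had a positive slope with an unadjusted p below 0.05, where 6.49% of all probe sets did. After adjustment over all probe sets 0 of the 9 passed, where 4 probe sets (0.0264%) did. The adjusted p was 0.0548 for Pdia4 and lay between 0.176 and 0.512 for the other 7 genes.

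**Figure D5:**
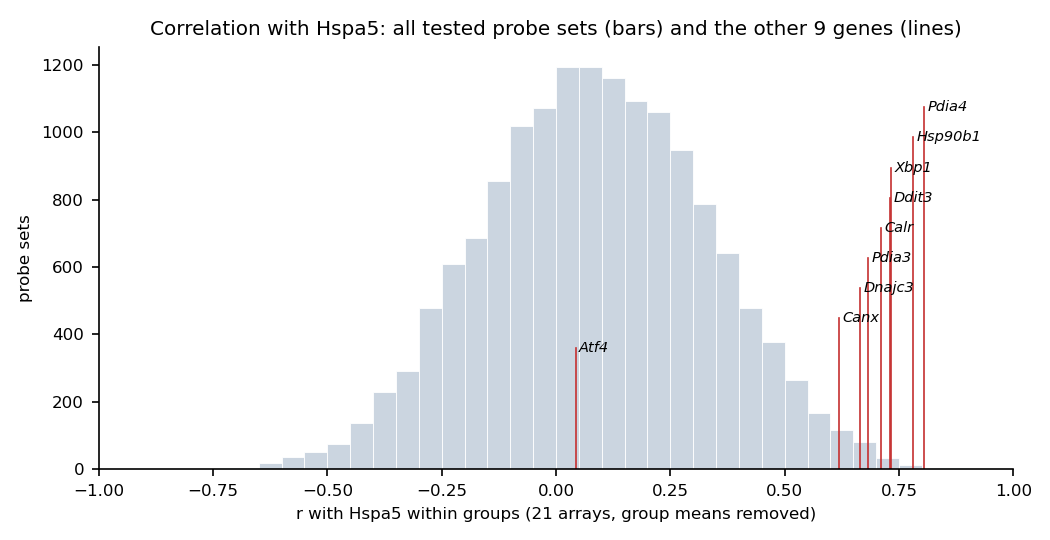
Number of tested probe sets (vertical axis) by their correlation with Hspa5 within groups (horizontal axis). Red lines mark the other 9 genes: 8 lie between 0.62 and 0.80, above the 95th percentile of 0.49, and Atf4 lies at 0.04, near the middle.

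Young replicates 6 and 9 were the arrays farthest from the median of Hspa5. Without them r was 0.75 for Pdia4, 0.73 for Hsp90b1, 0.68 for Dnajc3, 0.67 for Calr, 0.65 for Ddit3 and 0.60 for Xbp1. It dropped to 0.45 for Canx and 0.44 for Pdia3, so these relations rest in part on those arrays. Hsp90b1 kept the same sign and like size in each group, with r of 0.90 in young, 0.71 in unimpaired and 0.84 in impaired rats. For every gene but Xbp1, r was lowest in the unimpaired rats. It was 0.22 there for Ddit3, 0.34 for Dnajc3, 0.45 for Canx, 0.49 for Pdia4, 0.53 for Pdia3 and 0.59 for Calr. For Xbp1 it was highest there (0.97). Differences between groups in r were not tested. Deviations of Hspa5 correlated at 0.33 with the mean of all tested probe sets on an array and at -0.17 with the excess of 3' over 5' signal of the control probe sets, a gauge of RNA integrity. Within the 8 young arrays, which include the 2 farthest ones, these values were 0.43 and -0.47, and their part in the relations was not tested. With each array centred on its median, r was 0.57 for Canx and between 0.66 and 0.80 for the other 7. Without the 4 arrays with the most meningeal signal (young replicate 5 and impaired replicates 2, 3 and 7), r was 0.59 for Dnajc3 (permutation p = 0.0514, 17 arrays), and for the other 7 genes it lay between 0.53 and 0.83.

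Among the genes themselves, the highest r was between Hsp90b1 and Canx (0.88), followed by Hspa5 and Pdia4 (0.80), Canx and Pdia3 (0.79) and Hsp90b1 and Calr (0.78). Canx and Pdia3, which both had their lowest mean in unimpaired rats, were thus also close within groups. Dnajc3 was loosely tied to Xbp1 (0.27) and Canx (0.29). Atf4 had r between -0.22 and 0.27 with all 9 others, and -0.01 with its target Ddit3.

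By the rule for likeness to Hspa5 (Pearson r of deviations over 21 arrays), the first 8 genes were P4ha1 (0.84), Cabcoco1 (0.81), Pdia4 (0.80), Mettl16 (0.80), Amotl1 (0.80), Tm2d3 (0.79), Lman2l (0.79) and Hsp90b1 (0.78). P4ha1, a subunit of the enzyme that hydroxylates prolines of collagen in the endoplasmic reticulum, passed over all probe sets (limma adjusted p = 0.0181), and so did Cabcoco1 (adjusted p = 0.0233). Among the first 100 genes were 7 of the 9 others: Pdia4 at rank 3, Hsp90b1 at 8, Xbp1 at 24, Ddit3 at 25, Calr at 35, Pdia3 at 59 and Dnajc3 at 83. The number of probe sets that passed rested on single arrays: without young replicate 6 it was 1, without young replicate 7 it was 2, without impaired replicate 6 it was 0 and without unimpaired replicate 1 it was 9.

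Other genes of the compartment were followed through 9 lists with 150 measured genes, none of them among the 10 genes above. Partners and relatives of Hspa5 formed the first list, with 19 measured genes. In it the median r with Hspa5 was 0.30, and 4 genes were among the first 100: Ppib, a proline isomerase (0.77), Manf, a secreted factor that binds Hspa5 (0.75), Sdf2l1 (0.75) and the J-domain partner Dnajb11 (0.72). Of the other lists, the translocon and glycosylation list had a median r of 0.27 and placed Ostc (0.70) in the first 100, and the disulfide list had a median of 0.18 and placed Pdia6 (0.68). The 25 targets of the integrated stress response, which Atf4 leads, had a median of 0.04, below the 0.08 of all probe sets. Cytosolic chaperones, kept as a separate list of 27, had a median of 0.40, with 6 in the first 100, among them Dnaja1 (0.75), Cct4 (0.75) and Stip1 (0.73). These lists are described by their counts alone.

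In differences between groups the wider compartment gave 1 call in 4 comparisons. It was 1 of 150 genes in unimpaired minus young, where 1.13% of all tested probe sets passed. In impaired minus young, all aged rats against young and between the aged groups 0 passed, against 0.514%, 1.11% and 0% of all probe sets. Sec61b, a subunit of the channel through which new chains enter the lumen, was lower in unimpaired than in young rats by -0.21 ± 0.05 (SE, limma adjusted p = 0.0453, 6 of 6 arrays below the young mean). The call sat at the threshold: leaving out 1 array at a time kept it in 6 of 21 cases, with the difference between -0.22 and -0.17, and over all 30 alternatives it held in 8. It was lost without the 4 arrays with the most meningeal signal (limma adjusted p = 0.0566) and with no filter (0.0670), median centring (0.0643), quantile normalization (-0.15, 0.0894), array weights (0.0532), only the compared groups in the fit (0.0946) and the replicate number as a block (0.143). Between the aged groups Sec61b was 0.19 ± 0.05 higher in impaired rats (adjusted p = 0.159). In the translocon list 26 of 29 genes were negative in unimpaired minus young, with a median of -0.08, against 67.2% negative and a median of -0.04 over all 8737 genes. The oligosaccharide transferase subunits Stt3b (-0.21 ± 0.06, adjusted p = 0.0925) and Stt3a (-0.19 ± 0.06, adjusted p = 0.119) had the next smallest p values there.

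Sign counts of the lists are to be read against all genes, of which 67.2% were negative in unimpaired minus young, 43.8% in impaired minus young and 25.3% in impaired minus unimpaired. Among the partners of Hspa5, 14 of 19 were negative in unimpaired minus young (median -0.07) and 10 of 19 in impaired minus young (median -0.01), and none passed. The smallest p values were those of Manf in impaired minus young (-0.21 ± 0.06, limma adjusted p = 0.152) and Serp1 in unimpaired minus young (-0.19 ± 0.06, adjusted p = 0.111). In the degradation list 20 of 22 genes were negative in unimpaired rats, led by the ubiquitin ligase Rnf139 (-0.25 ± 0.06, adjusted p = 0.0617) and the segregase Vcp (-0.12 ± 0.04, adjusted p = 0.142). Rnf139 was 0.25 ± 0.07 higher in impaired than in unimpaired rats (adjusted p = 0.157). Of the 14 calcium genes 12 were negative in unimpaired minus young, with a median of -0.10, and 13 were positive in impaired minus unimpaired, with the calcium channel Tmco1 at -0.20 ± 0.05 (adjusted p = 0.0704) and 0.21 ± 0.06 (adjusted p = 0.159). The disulfide list had 11 of 16 negative in unimpaired rats, with Pdia6 at -0.16 ± 0.07 (adjusted p = 0.231), and Pdia6 was also at -0.15 ± 0.06 in impaired minus young (adjusted p = 0.318).

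The stress signalling lists were mixed in sign. Of 11 sensors and their processing enzymes, 7 were positive in impaired minus young, with the antioxidant factor Nfe2l2 at 0.19 ± 0.07 (limma adjusted p = 0.210) and the site 2 protease Mbtps2 at -0.14 ± 0.06 (adjusted p = 0.370). Of 25 targets of the integrated stress response, 15 were positive in impaired minus young (median 0.02) and 10 in unimpaired minus young. Cebpb, a transcription factor, was 0.27 ± 0.09 in unimpaired minus young (adjusted p = 0.155) and the serine enzyme Psph was -0.27 ± 0.11 (adjusted p = 0.205). In the glycoprotein folding list, with 11 genes, the cargo receptor component Ergic1 was 0.20 ± 0.07 in impaired minus young (adjusted p = 0.194). The cell death list had only 3 measured genes, and all 3 were positive in impaired minus young, Bbc3 at 0.10 ± 0.05 (adjusted p = 0.459). In the cytosolic list the glucocorticoid-induced Fkbp5 was 0.30 ± 0.08 in unimpaired (adjusted p = 0.0816) and 0.25 ± 0.08 in impaired rats (adjusted p = 0.168), and Fkbp4 was -0.24 ± 0.08 in impaired rats (adjusted p = 0.206), each against young.

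Over the 150 genes, 112 were negative in unimpaired minus young, against 67.2% of all genes, with a median of -0.06 against -0.04. In impaired minus young 66 were negative, against 43.8% of all genes, and the median of 0.01 equalled that of all genes. For all aged rats against young 99 were negative, against 56.9%, with a median of -0.03 against -0.01. Between the aged groups 40 were negative, against 25.3%, and the median of 0.05 equalled that of all genes. Unadjusted p values below 0.05 were found for 19 of the 150 genes in impaired minus young (12.4% of all probe sets), 26 in unimpaired minus young (17% of all), 21 for all aged rats against young (14.6% of all) and 22 between the aged groups (14.5% of all). These counts were near the share of all probe sets.

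Outside the 10 genes, 15 other genes had an exact ERSE in their promoter window and 7 of them were tested. Creld2, an endoplasmic reticulum protein that stress induces, was the one with a high correlation with Hspa5 (0.63), and it differed from young by -0.25 ± 0.11 (SE) in impaired (limma adjusted p = 0.331) and by -0.14 ± 0.11 in unimpaired rats (adjusted p = 0.560). The other 6 (Hnrnpa3, Ppm1l, Ankmy2, Ero1b, Pan2 and Zfp57) had r between -0.27 and 0.39, and none passed in any comparison.

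Array medians lay between 3.77 and 3.84. The labelled tissue carried its markers: 8 of 10 measured granule neuron genes passed the filter, and their mean level over all 10 was 8.09 in young, 8.17 in unimpaired and 8.19 in impaired rats. Of 17 meningeal fibroblast genes 4 passed, and the mean level over all 17 ran from 3.75 to 4.25 in young, 3.69 to 3.77 in unimpaired and 3.70 to 5.37 in impaired rats. Impaired minus young without the 4 highest arrays in this list was -0.30 ± 0.11 (SE) for Hspa5 and -0.49 ± 0.15 for Dnajc3. Mean levels of the 9 marker lists correlated with Hspa5 within groups at -0.20 (meningeal) to 0.27 (astrocyte).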

How the data were processed

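Total RNA of the dentate gyrus of single rats was hybridized to Affymetrix Rat Genome arrays. The authors deposited log2 values for each probe set, which the submitters' processing notes credit to GCRMA, and no further normalization was applied. Of 24 labelled arrays, 3 (1 per group) have empty columns because the submitters omitted them, and 21 were used. Young replicate 9 is young by its title, although its array is listed beside those of unimpaired rats. Groups were taken from the labels, which give no batch.

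A linear model of all 3 groups in 1 fit gave the differences (lmFit, then eBayes, of limma 3.58.1 under R 4.3.3), and every adjusted p is a limma p with Benjamini and Hochberg adjustment over all tested probe sets, with a threshold of 0.05. A limma p-value sets a difference, or a slope on Hspa5, against the spread between rats within groups. A permutation p-value sets a correlation against those of arrays shuffled within groups. The number of arrays limits the precision. Correlations used deviations from group means and 100000 permutations within groups. Gene symbols came from the platform annotation, and all 10 genes matched RefSeq by gene identifier. The fit was tested on simulated data. The members and lists were chosen with earlier results of these data known. Genes were named by a rule: all 10 members, genes with the smallest p of each list (up to 3 per list and comparison) and every called one, and the 8 most like Hspa5, while Creld2 and the other genes with an ERSE, and those of the lists named for their correlation, were chosen after their values were seen. Alternatives covered the filter, centring, quantile normalization, trend and robust eBayes, array weights, separate fits, the replicate number as a block and arrays left out.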

Additional observations from a re-analysis of the deposited data

Results flagged for a closer look

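Aged unimpaired replicate 8 stood below the other 5 unimpaired arrays for both probe sets of Pdia3. On the brighter one its log2 level was 10.77, where the next array was at 10.99, and on the dimmer one it was 6.866, where the next was at 7.12. In both the gap took more than the 95% critical share of the range of the group by Dixon's ratio (0.666 and 0.725). Chance alone flags about 5% of groups, and 39 were examined. The same array was the lowest of its group for Hsp90b1, Calr, Ddit3, Dnajc3 and the first 2 probe sets of Canx.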

How the results depend on the processing

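The 4 counts of member probe sets that passed stayed at 0 under each alternative run, except that leaving out 1 array at a time gave 0 to 1 in impaired minus young. The 1 was Dnajc3 without young replicate 5, where 161 of all probe sets passed against 78 with every array. Of 17 pairs of arrays with the same replicate number, 4 had deviations correlated above 0.1 (range -0.12 to 0.20). Arrays with unlike numbers were not compared, so these values cannot decide whether the numbers pair the rats. With the number as a replicate block, the calls among all probe sets went from 172 to 9 in unimpaired minus young and from 78 to 114 in impaired minus young. Under that block 0 member probe sets passed in each comparison, and 0 probe sets passed for co-variation with Hspa5. That last count, 4 as reported, was 1 without the 4 arrays with the most meningeal signal and ran from 0 to 9 with 1 array left out at a time. The single call among other genes of the compartment, Sec61b, became 0 without those 4 arrays, and over all 30 alternatives Sec61b passed in 8, with an adjusted p of 0.0391 to 0.143. Recomputed member differences moved by less than 1 SD between replicates in 444 cases and further in 4. The 4 were Canx in unimpaired minus young and impaired minus unimpaired, under quantile normalization (-0.03 and 0.03) and on its dimmest probe set (-0.02 and 0.02). The filter, trend and robust eBayes and separate fits cannot move a difference of group means, so those cases were the same by construction. Nor can leaving out an array of a group outside the comparison, and the sign counts below include such settings. Hspa5 and Dnajc3 stayed negative in every setting run for them, Hspa5 in impaired minus young from -0.35 to -0.26 and Dnajc3 from -0.53 to -0.41. Those ranges recompute the values that served the choice of genes from the same arrays, and are a description only. Small differences changed sign in some settings: in unimpaired minus young Ddit3 kept its sign in 22 of 30 and Atf4 in 29, turning to 0.04 and 0.03 under quantile normalization, and in impaired minus young Pdia3 kept it in 25 and Canx in 21. Between the aged groups Hsp90b1, Xbp1 and Atf4 each kept theirs in 29 of 30. A second Hspa5 probe set could not be tried, since the array has 1, and Dnajc3 was not tested with the filter at 6.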
